A study of Mus musculus with 8 samples.

Results

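The mitochondrial ribosomal protein genes were taken as every gene whose symbol starts with Mrpl or Mrps followed by a number and whose estimated counts, summed over the 8 libraries, reached 80. The files held 77 such symbols among 18846 genes, and all 77 reached the threshold. The lowest sum was 1740 counts (Mrps12) and the highest 17361 (Mrpl33), so no gene lay near the threshold on either side. By symbol, 48 belong to the large subunit (Mrpl) and 29 to the small subunit (Mrps). All 77 passed the filter on low counts and were tested. They lie on 17 chromosomes.

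Mitochondria carry ribosomes of their own, which translate the few proteins encoded by mitochondrial DNA, all of them subunits of the oxidative phosphorylation complexes. Every protein of these ribosomes is encoded in the nucleus, made in the cytosol and imported, and part of them have no counterpart in bacteria. In the adrenal cortex, mitochondria also house the first and last steps of steroid synthesis (Cyp11a1, Cyp11b1), which adrenocorticotropic hormone (ACTH) from the pituitary drives.

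The 8 libraries are RNA-seq of 1 adrenal gland each from mice labelled 129SVEV, and each title carries its own animal label. The 4 groups are untreated wild type, untreated Siah1a -/-, wild type given ACTH and Siah1a -/- given ACTH, with 1 animal labelled male and 1 labelled female in each. ACTH was injected intraperitoneally at 100 µg/kg 1 hour earlier, and the other animals were untreated, with no vehicle injection among the labels. Siah1a encodes an E3 ubiquitin ligase, and the labels give neither the design of the allele nor the animals' ages. Paired values below are ordered male, then female, by label.

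The 8 libraries held 8020111 to 29568950 estimated counts each. Levels within a gene are given as CPM (counts relative to the library total, with TMM factors applied), and levels between genes as the authors' RPKM, which also divides by transcript length. Siah1a itself stood at 26.3, 26.1, 33.1 and 32.4 CPM in the wild-type libraries and gave 25.2, 21.2, 19.0 and 17.4 CPM in the knockout libraries, so its ranges did not overlap and its transcript was still counted in the knockout. Its log2 fold change was -0.52 and did not pass (edgeR adjusted p = 0.383). Which exons those reads covered cannot be read from 1 sum per gene. The untreated wild-type gland labelled male held 388 CPM of Xist and 3.06 CPM of 4 Y-linked genes together, against 490 to 605 CPM of the latter in the other 3 libraries labelled male, so its transcripts went against its sex label. After ACTH, the wild-type gland labelled female held 23.5 CPM of the Y-linked genes, against 0 to 3.91 CPM in the other glands labelled female. The ACTH-treated wild-type gland labelled male held 31.8 CPM of Xist, against 4.05 and 5.98 CPM in the knockout glands labelled male. The 7 kidney markers summed to 1913 CPM in the untreated wild-type gland labelled male and to 0 to 8.69 CPM in the others. The 7 liver markers summed to 60980 CPM in the wild-type gland labelled female after ACTH and to 123 to 682 CPM in the others. The 4 neuron markers summed to 431 CPM in the knockout gland labelled male after ACTH and to 13.6 to 64.9 CPM in the others. The 7 adipocyte markers summed to 1960 to 5957 CPM. Among them Ucp1 ran from 27.3 CPM in the knockout gland labelled male after ACTH to 947 CPM in the untreated wild-type gland labelled male. The 6 markers of macrophages and lymphocytes summed to 48.7 to 122 CPM. The 7 cortex markers summed to 26960 to 51210 CPM.

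The family was well expressed. The median over the 77 genes of the mean RPKM was 34.3, against 6.53 over the 14892 genes of the files that met the same threshold of 80 counts, and 76 of the 77 lay above the latter value. The subunits had nearly the same median, 34.4 RPKM for the large and 34.3 RPKM for the small subunit. Within the large subunit the levels ran from 5.80 to 247 RPKM, and within the small subunit from 10.8 to 125 RPKM.

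The top of the order was Mrpl33, a small protein of the large subunit, at 247 ± 62.6 RPKM (SD, n = 8), followed by the small-subunit protein Mrps21 at 125 ± 53.5 RPKM. Next came 3 large-subunit genes, Mrpl20 at 109 ± 19.5 RPKM, Mrpl30 at 93.7 ± 17.0 RPKM and Mrpl24, a protein at the exit of the peptide tunnel, at 84.0 ± 20.3 RPKM. From Mrps21 down to Mrpl24 these levels lay within 1 SD of their neighbours, while Mrpl33 lay above Mrps21 by more than either SD. The lowest levels were all of large-subunit genes: Mrpl19 at 5.80 ± 1.23 RPKM, Mrpl35 at 8.76 ± 1.38, Mrpl17 at 8.98 ± 1.22, Mrpl57 at 10.3 ± 2.01 and Mrpl1 at 10.5 ± 2.37 RPKM. Apart from Mrpl19, neighbours in this order lay closer than the larger of their SDs.

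**Figure D1:**
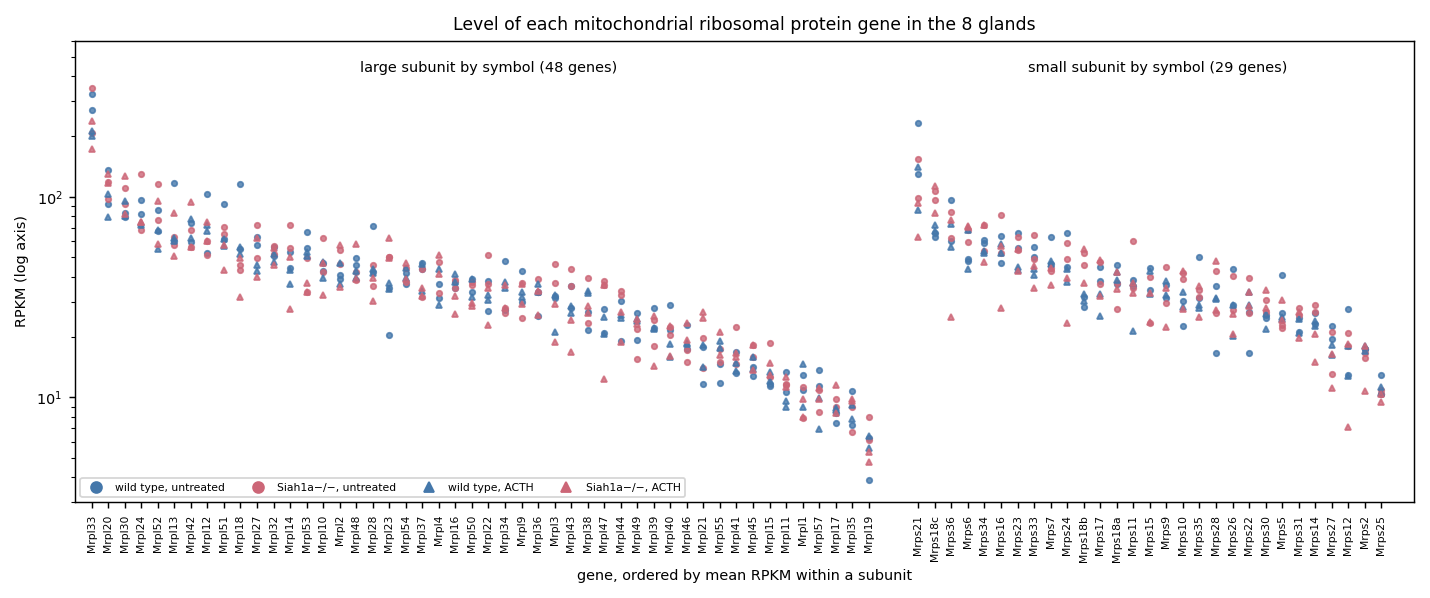
RPKM (log axis) of each of the 77 genes in the 8 glands, 48 large-subunit genes on the left and 29 small-subunit genes on the right, each ordered by mean RPKM, with colour for genotype and shape for treatment. The order runs from Mrpl33 (mean 247 RPKM) to Mrpl19 (5.80 RPKM), and for most genes the 4 kinds of point overlap.

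The levels varied little between glands. The coefficient of variation (CV, SD over mean) of CPM over the 8 libraries had a median of 19.5% over the family, against 35.0% over all genes tested and 24.8% over the 7604 genes in the same range of mean CPM (13.7 to 135.9). Of the 77, 75 lay below the median of all genes. Mrps25, a small-subunit protein specific to mitochondria, was the steadiest (CV 7.76%), with 69.9 to 87.3 CPM over all 8 glands. Mrpl32 (10.1%), Mrpl54 (11.1%) and Mrpl11 (11.2%) came next. The most variable were Mrpl18 (41.6%), Mrps21 (38.9%), Mrpl47 (34.2%) and Mrps12 (34.1%).

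In these 4 genes single glands held the extremes. Mrpl18, the homolog of bacterial ribosomal protein L18, reached 124 CPM in the untreated wild-type gland labelled male and 36.8 to 70.0 CPM in the other 7. Mrps21 was also highest in that gland, at 106 CPM, and lowest in the knockout gland labelled male after ACTH, at 31.2 CPM. Mrpl47 was lowest in the latter library too, at 13.02 CPM, against 20.4 to 40.4 CPM elsewhere. Mrps12, the decoding-centre protein known from streptomycin resistance in bacteria, ranged from 5.67 CPM in the knockout gland labelled female after ACTH to 20.9 CPM in the untreated wild-type gland labelled male, and its lowest value rests on 74 counts. Of the 77 genes, 22 had their highest and 18 their lowest level in the untreated wild-type gland labelled male, and 8 had their highest and 25 their lowest level in the knockout gland labelled male after ACTH. These are the libraries with kidney and with neuron transcripts, and the former also had the fewest estimated counts, 8020111. The part of those transcripts and of library depth in the result was not tested.

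**Figure D2:**
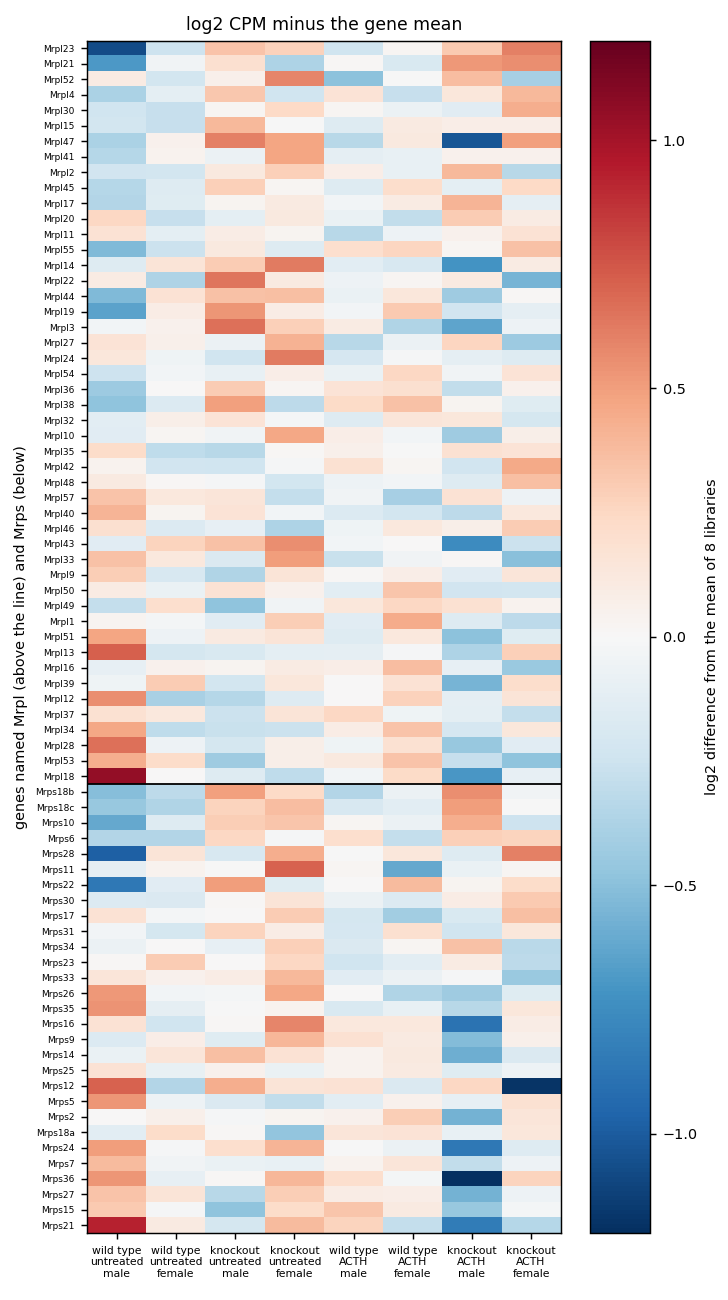
Level of each gene (rows, Mrpl above the line and Mrps below it, each ordered by the difference between genotypes) in each gland (columns) as log2 CPM minus that gene's mean over the 8 libraries, red for above and blue for below. The columns for untreated wild-type male and ACTH-treated knockout male hold many of the strong colours, with 22 and 8 of the highest and 18 and 25 of the lowest levels.

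The first comparison asks whether the transcripts of the mitochondrial ribosome differ without Siah1a. None of the 77 genes passed in edgeR's quasi-likelihood test of the 4 knockout against the 4 wild-type glands, with treatment and sex label in the model and p-values adjusted over 15361 genes. The test called 4 of these genes in all (0.026%). At an unadjusted p under 0.05, 4 family members were higher (5.33% of all genes) and 2 lower (8.11%) in the knockout, 6 of 77, against 13.4% of all genes. DESeq2 and limma-voom also called 0 members, where they called 947 genes (6.41%) and 108 genes (0.703%) in all. The median log2 fold change was 0.02 over the family and -0.04 over all genes, 40 members were positive and 37 negative, and 46.5% of all genes were positive. Between glands matched by label, the median member log2 difference was -0.02 and 0.23 untreated and -0.12 and -0.05 after ACTH. Over all genes these were 0.003 and -0.02, and -0.07 and -0.05. For 69 of the 77 the 95% interval of the fold change lay within 2-fold in either direction. In whole glands, fewer cells of a type and less RNA per cell cannot be told apart.

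By role, the 30 large-subunit proteins with bacterial homologs had a median log2 fold change of 0.13 with 21 positive, and the 20 large-subunit proteins specific to mitochondria had -0.02 with 7 positive. The 16 small-subunit proteins with bacterial homologs had -0.10 with 6 positive, and the 10 specific to mitochondria had 0.03 with 6 positive. Here Mrps30 and Mrps18a count with the large subunit, where the proteins sit. Mrps18a and Mrps18b are counted as specific to mitochondria, although they descend from a bacterial protein, as Mrps18c does. The cytosolic ribosomal protein genes stood elsewhere: 81 of 82 tested were positive, with a median of 0.56, 73 at an unadjusted p under 0.05 and 0 called (smallest adjusted p = 0.0995 in edgeR's test). DESeq2 called 65 of these 82 and limma-voom 14, all higher in the knockout. Their summed level was 29560 to 32290 CPM in the wild-type glands and 42180 to 45660 CPM in the knockout glands, while that of the mitochondrial family was 3718 to 4123 CPM and 3545 to 4350 CPM. The ranges were apart for the cytosolic genes and overlapped for the mitochondrial genes, and the difference between the lists was not tested. The 6 markers of the chromaffin medulla summed to 2026 to 4020 CPM in wild type and 7407, 6053, 6373 and 1809 CPM in the knockout, and their part was not tested.

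**Figure D3:**
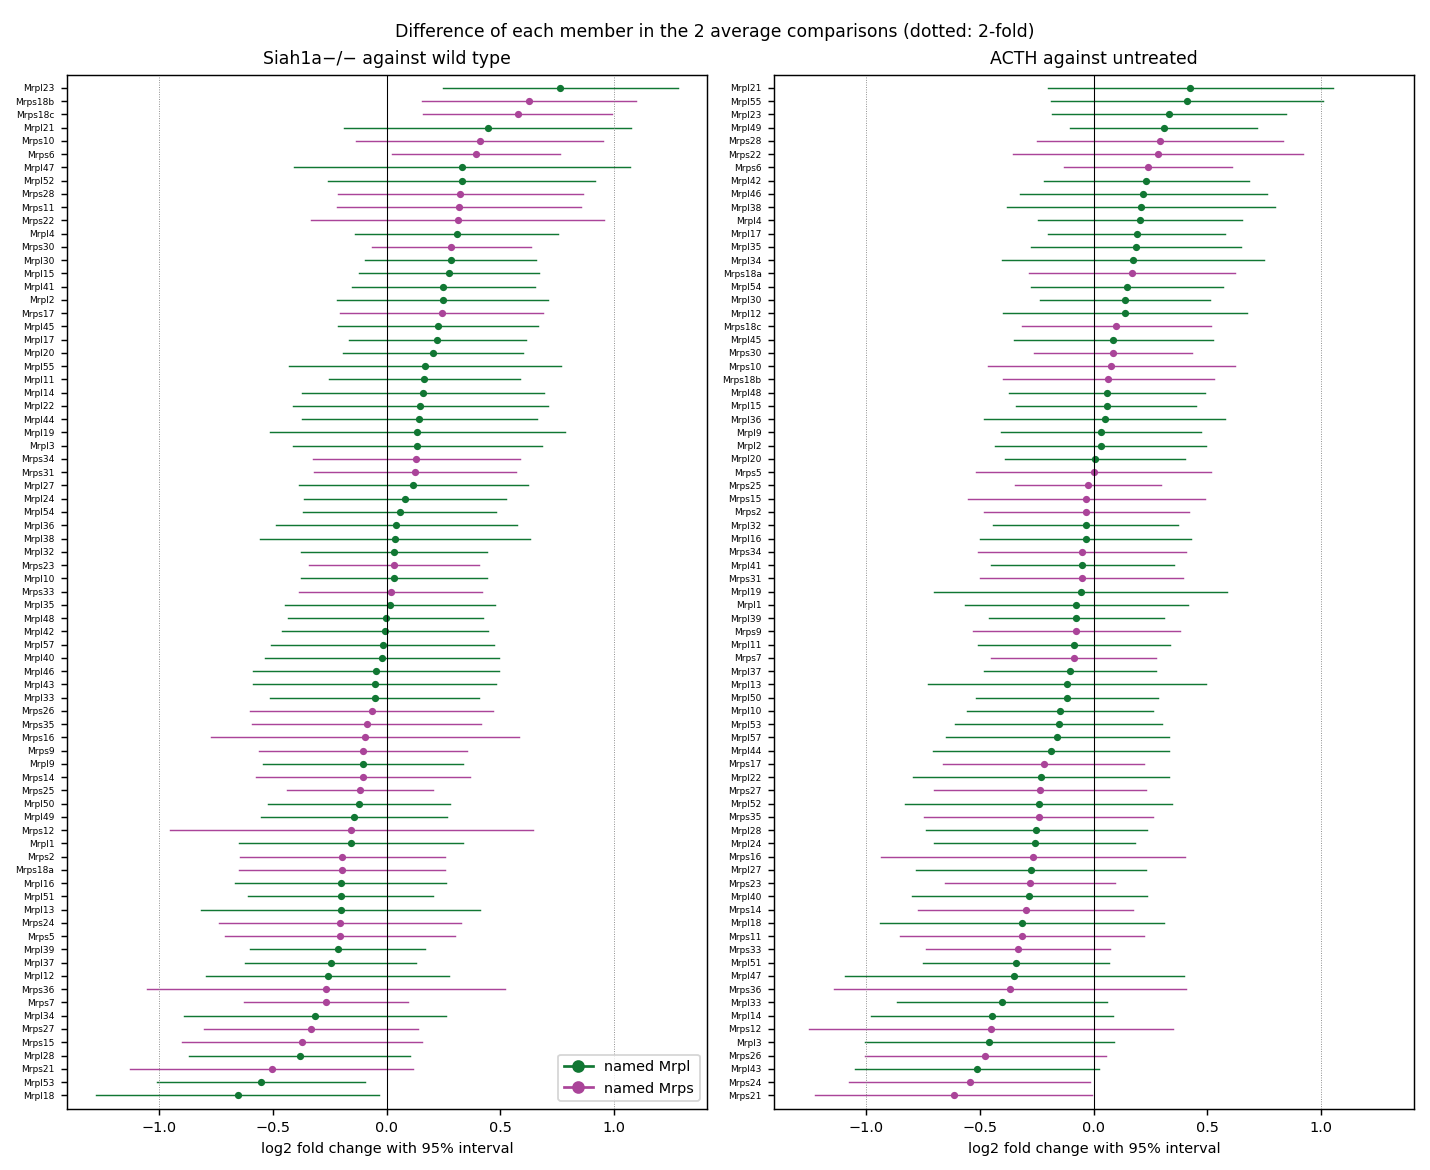
Log2 fold change (points) of each of the 77 genes with its 95% interval (lines), Siah1a -/- against wild type on the left and ACTH against untreated on the right, ordered by size, with dotted lines at 2-fold. On the left the points run from -0.66 (Mrpl18) to 0.76 (Mrpl23) around a median of 0.02, and on the right from -0.62 (Mrps21) to 0.43 (Mrpl21).

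CPM ranges of the genotypes did not overlap for 7 members: Mrpl23, Mrps18b, Mrps18c and Mrps30 were higher in every knockout gland (4 of 77, against 4.21% of all genes), and Mrpl18, Mrpl53 and Mrps7 lower (3 of 77, against 4.71%). These shares are near those of all genes. The promoter stretches of Mrps18c, Mrps18b and Mrpl53, which had the smallest p in this comparison after Mrpl23, and of Mrpl43, which had the smallest p under ACTH in the knockout, are shown so that the genes' start regions can be compared. Each is the 200 bases before an annotated start, on the gene's strand, from RefSeq promoters of GRCm38.p6, with matches to the motif CCGGAAG of ETS factors such as GABP, in either direction, in capitals. They are chr5:100798559-100798758 (+ strand), chr17:35916441-35916640 (- strand), chr6:83108908-83109107 (+ strand) and chr19:45006443-45006642 (- strand), in the order below.
Mrps18c: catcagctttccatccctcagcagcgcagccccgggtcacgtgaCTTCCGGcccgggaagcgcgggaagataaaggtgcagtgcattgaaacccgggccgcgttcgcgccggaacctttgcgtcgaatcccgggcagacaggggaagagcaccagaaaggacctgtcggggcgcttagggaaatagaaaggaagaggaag
Mrps18b: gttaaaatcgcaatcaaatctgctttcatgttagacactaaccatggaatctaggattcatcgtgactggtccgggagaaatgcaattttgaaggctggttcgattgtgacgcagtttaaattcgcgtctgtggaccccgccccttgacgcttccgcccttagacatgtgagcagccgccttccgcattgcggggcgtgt
Mrpl53: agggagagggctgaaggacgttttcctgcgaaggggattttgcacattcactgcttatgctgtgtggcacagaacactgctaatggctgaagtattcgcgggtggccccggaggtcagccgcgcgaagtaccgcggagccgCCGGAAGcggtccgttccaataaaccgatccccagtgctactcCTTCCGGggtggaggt
Mrpl43: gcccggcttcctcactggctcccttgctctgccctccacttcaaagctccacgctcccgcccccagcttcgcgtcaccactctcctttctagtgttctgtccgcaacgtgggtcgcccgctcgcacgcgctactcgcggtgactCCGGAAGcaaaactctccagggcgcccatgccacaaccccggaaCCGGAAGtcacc

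Mrps18c held 1 such match, Mrpl53 and Mrpl43 held 2 each, and Mrps18b none in the stretch shown. That of Mrpl23 is not shown, since the start in the promoter table lies inside the annotated gene. Promoters were found for 68 of the 77 members (74 windows of 300 bases, 250 before and 50 after the start). The motif CCGGAAG was in 33.8% of these and in 8.9% of 32544 mouse promoters of the same length. Mrps18b was among the members with it in this wider window, outside the stretch shown. The NRF1 motif (GCGCA, any base, then GCGC) was in 17.6% against 4.6%, and AAGATGGCG, bound by YY1, in 10.8% against 1.4%. The CREB motif TGACGTCA was in 2.7% against 1.8%, and the TATA box letters TATAAA in 6.8% against 13.6%. All were searched on both strands, and a stretch may match more than 1 motif. A match describes letters and is no evidence of binding. In the annotation of mm10, 18 of the 77 genes (23.4%) had a coding gene starting within 1000 bases on the other strand and pointing away, against 6.8% of 21951 coding genes. Mrps18b and Ppp1r10 start 45 bases apart, and Mrps18c and Helq 29 bases.

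Mrpl23 (chromosome 7, 142532467 to 142540747, mm10), a large-subunit protein near the tunnel exit, had the smallest p. Without treatment, wild-type glands gave 13.3 and 23.4 CPM and knockout glands 35.5 and 33.8 CPM. After ACTH, wild-type glands gave 23.6 and 28.3 CPM and knockout glands 34.8 and 42.5 CPM. Every knockout gland was above every wild-type gland, and the lowest value was in the library with kidney transcripts. The means were 22.2 ± 6.34 and 36.7 ± 3.98 CPM (SD, n = 4). The log2 fold change was 0.76 (SE 0.22), which did not pass over all genes (edgeR adjusted p = 0.215). With both wild-type libraries of kidney or liver transcripts left out it was 0.63 (edgeR adjusted p = 0.618). A pseudogene, Mrpl23-ps1, is annotated, so its reads may be shared with a copy.

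The paralogs Mrps18a, Mrps18b and Mrps18c descend from the same bacterial protein, S18, and occupy different places in the ribosome. Mrps18c (chromosome 5, 100798759 to 100804467) gave 35.4 and 37.7 CPM in untreated and 42.6 and 44.5 CPM in ACTH-treated wild-type glands. Its knockout values were 58.6 and 62.6 CPM untreated and 68.8 and 48.5 CPM after ACTH. All 4 knockout glands were above all 4 wild-type glands. The log2 fold change was 0.58 (SE 0.18, edgeR adjusted p = 0.237).

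Mrps18b (chromosome 17, 35910380 to 35916440) gave 33.2 and 38.0 CPM in untreated and 37.2 and 45.2 CPM in ACTH-treated wild-type glands. Its knockout levels were 66.7 and 55.7 CPM untreated and 69.7 and 46.0 CPM after ACTH. Again the ranges did not overlap, but the lowest knockout gland was within 1 CPM of the highest wild-type gland. The log2 fold change was 0.63 (SE 0.20, edgeR adjusted p = 0.246). Mrps18a, the paralog of the large subunit, stood at 41.7 ± 4.26 CPM in wild type against 36.5 ± 6.30 CPM in knockout glands (SD, n = 4), with overlapping ranges and a log2 fold change of -0.20 (edgeR adjusted p = 0.722). The difference between the paralogs was not tested. By RPKM Mrps18c was the most abundant of the 3, at 83.6, against 39.1 for Mrps18b and 38.1 for Mrps18a.

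Mrpl53 (chromosome 6, 83109108 to 83109932), a large-subunit protein specific to mitochondria, lay on the other side. It stood at 45.9, 39.4, 36.8 and 42.9 CPM in the wild-type glands (untreated, then ACTH) and at 25.1, 35.5, 27.9 and 24.3 CPM in the knockout glands. The ranges did not overlap, and the log2 fold change was -0.55 (SE 0.20, edgeR adjusted p = 0.283). Gm42688 overlaps its exons on the same strand, so reads of these genes may be shared. Mrpl18 had the lowest fold change of the family, -0.66 (SE 0.27, edgeR adjusted p = 0.347), with 48.5 ± 8.39 CPM in the knockout and 78.1 ± 31.1 CPM in wild type (SD, n = 4). Without the 2 wild-type glands with kidney or liver transcripts it was -0.30, with its 124 CPM value among those left out. Exons of Mrpl18 overlap those of Tcp1 on the other strand.

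Of the other members with the smallest p, Mrps6 had a log2 fold change of 0.39 (edgeR adjusted p = 0.339) and its ranges overlapped, where the ACTH-treated wild-type male stood at 62.4 CPM. Mrps30, a protein of the large subunit despite its symbol, stood at 45.3 to 48.5 CPM in wild type against 51.4 to 63.5 CPM in knockout glands, and its fold change was 0.28 (edgeR adjusted p = 0.462). Mrps21 had -0.51 (edgeR adjusted p = 0.462), and Mrps7, lower in each knockout gland, -0.27 (edgeR adjusted p = 0.506). Reads of Mrps6, Mrps7 and Mrps30 may be shared with genes whose exons overlap theirs (Slc5a3, Gga3 and Mif4gd, and B430218F22Rik).

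**Figure D4:**
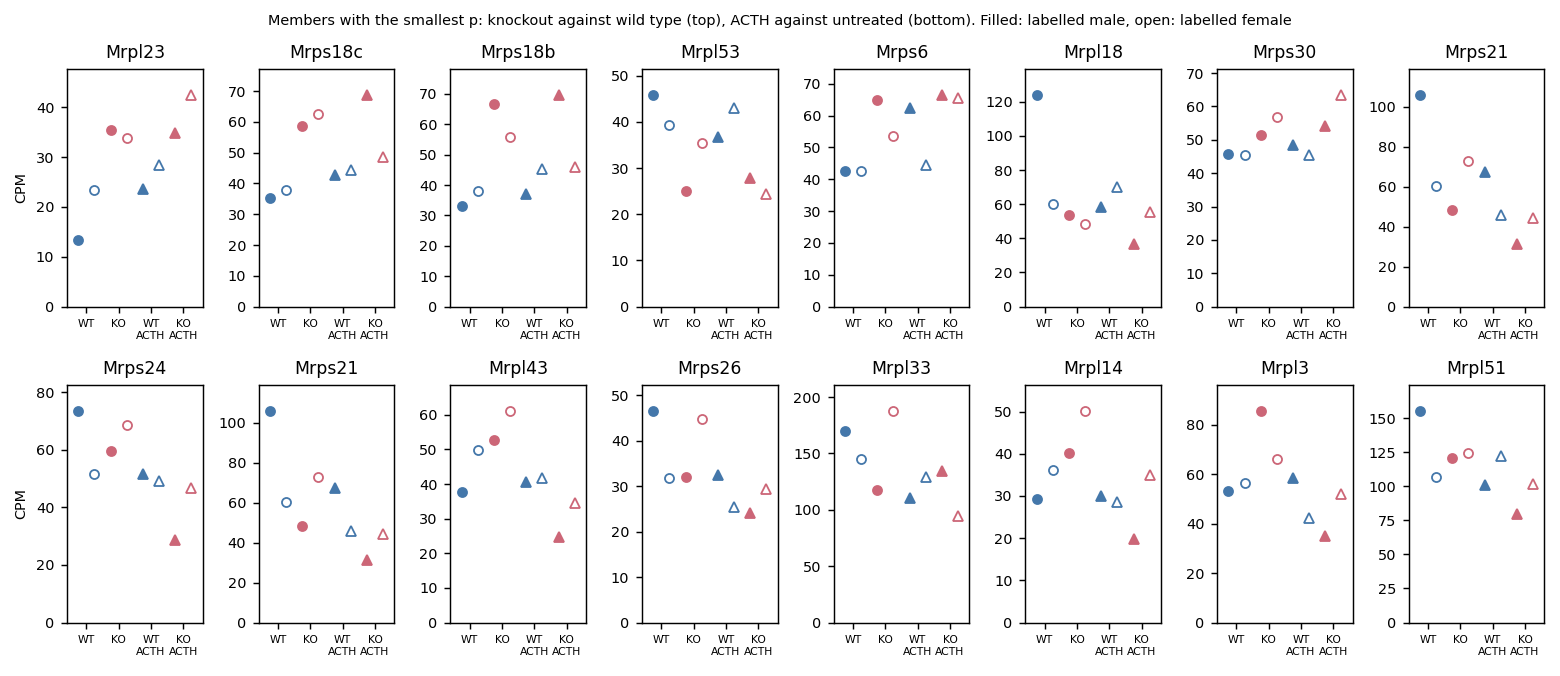
CPM in each gland of the 8 members with the smallest p for genotype (top) and for ACTH (bottom), blue for wild type and red for knockout, circles for untreated and triangles for ACTH, filled for labelled male. In Mrpl23, Mrps18c, Mrps18b and Mrps30 the red points lie above the blue, in Mrpl53 and Mrpl18 below, and no gene passed the test over all genes.

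The second comparison asks whether 1 hour of ACTH was followed by other levels. Again none of the 77 passed in edgeR's test (3 genes of 15361 were called, 0.0195%), and DESeq2 and limma-voom called 0 members, where they called 123 (0.801%) and 3 genes. At an unadjusted p under 0.05, 0 members were higher (3.49% of all genes) and 2 lower (2.62%), against 6.11% in either direction. The median log2 fold change was -0.06 over the family and 0.02 over all genes, and 29 members were positive and 48 negative, where 52.2% of all genes were positive. The 95% interval lay within 2-fold for 67 of 77. Ranges of treated and untreated glands did not overlap for 1 member, Mrps33, which was lower in each treated gland (1.8% of all genes were lower in this way), and 0 members were higher (2.1%). By role the medians were -0.04 for the large-subunit proteins with bacterial homologs, -0.06 for those specific to mitochondria, -0.08 for the small-subunit proteins with bacterial homologs and -0.14 for those specific to mitochondria.

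Mrps24, a small-subunit protein with a bacterial homolog, had the smallest p. It stood at 73.6 and 51.6 CPM in untreated and 51.7 and 49.3 CPM in ACTH-treated wild-type glands, and at 59.5 and 68.7 CPM in untreated and 28.6 and 46.6 CPM in ACTH-treated knockout glands. The treated glands were at the low end, 1 of them just above the lowest untreated gland, and the lowest was the library with neuron transcripts. The log2 fold change was -0.55 (SE 0.23, edgeR adjusted p = 0.798). Its exons overlap those of Urgcp on the same strand. Mrps21 gave 106.1 and 60.2 CPM in untreated wild-type and 48.4 and 72.7 CPM in untreated knockout glands, against 67.3 and 46.0 CPM and 31.2 and 44.3 CPM after ACTH. Its log2 fold change was -0.62 (SE 0.26, edgeR adjusted p = 0.806), and was -0.33 without the 2 wild-type glands with kidney or liver transcripts.

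The other members with the smallest p were all lower after ACTH in value, and none passed. Mrps26, of the small subunit and specific to mitochondria, had a log2 fold change of -0.48 (edgeR adjusted p = 0.814). In the large subunit, the values were -0.51 for Mrpl43 (edgeR adjusted p = 0.807), -0.40 for Mrpl33 (0.821), -0.45 for Mrpl14 (0.830), -0.46 for Mrpl3 (0.832) and -0.34 for Mrpl51 (0.832). Mrps33, whose ranges did not overlap, stood at 60.6 to 77.0 CPM untreated and 43.0 to 57.9 CPM after ACTH, and its fold change was -0.33 (edgeR adjusted p = 0.833).

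Within each genotype and treatment, where 2 glands stand against 2, edgeR called 0 members in all 4 comparisons and in the interaction, the test of whether the ACTH difference itself differed between genotypes. DESeq2 and limma-voom also called 0 members. Of all genes, edgeR called 0 (0%) in each of these apart from knockout against wild type after ACTH, with 1 gene (0.00651%). DESeq2 called 110 genes (0.716%) between the untreated genotypes, 501 (3.46%) between the genotypes after ACTH, 37 (0.251%) for ACTH in wild type, 98 (0.638%) for ACTH in the knockout and 8 (0.0521%) for the interaction. In limma-voom these were 0 (0%), 13 (0.0846%), 3 (0.0195%), 0 (0%) and 0 (0%). At an unadjusted p under 0.05 there were 3 members, all higher, between the untreated genotypes (4.84% of all genes, 2.2% higher), 0 after ACTH (8.23%), 0 for ACTH in wild type (2.56%), 4, all lower, for ACTH in the knockout (4.22%, 2.27% lower) and 1, lower, for the interaction (1.84%, 1.26% lower). The 3 between the untreated genotypes were Mrpl23 at a log2 fold change of 0.96, Mrps18b at 0.78 and Mrps18c at 0.73 (edgeR adjusted p = 0.892 for each). After ACTH the values of these 3 were 0.57, 0.48 and 0.42, and the smallest p belonged to Mrpl53 at -0.61 (edgeR adjusted p = 0.663), Mrpl43 at -0.50 (0.677) and Mrpl16 at -0.50 (0.691). These comparisons are less precise: the interval of the interaction lay within 2-fold for 7 of the 77 genes.

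The family's median ACTH value was lower in the knockout than in wild type, and edgeR's interaction called 0 members. The median log2 fold change was -0.14 in the knockout (24 positive and 53 negative, where 48.7% of all genes were positive around a median of -0.015) and 0.05 in wild type (42 positive and 35 negative, where 54.8% of all genes were positive around a median of 0.06), and that of the interaction was -0.18 against -0.09 over all genes. All 10 small-subunit proteins counted as specific to mitochondria, Mrps18b among them, were negative in the knockout, from -0.52 to -0.06. These 2 knockout libraries after ACTH include the one with neuron transcripts. The median member difference between matched knockout glands was -0.13 for the pair labelled male and -0.12 for the pair labelled female. In the former 30 members were higher and 47 lower, and in the latter 36 and 41. In wild type the medians were -0.03 for the pair labelled male and 0.09 for the pair labelled female. Mrpl43 (chromosome 19, 45005014 to 45006442), specific to mitochondria and in the large subunit, stood at 52.8 and 61.2 CPM in untreated and 24.6 and 34.6 CPM in ACTH-treated knockout glands. These values do not overlap, and how many of all genes separate in this way with 2 glands against 2 was not counted. In wild type it stood at 37.6 and 49.9 CPM untreated and 40.5 and 41.7 CPM after ACTH. Its log2 fold change was -0.96 in the knockout (SE 0.26, edgeR adjusted p = 0.999) and its interaction -0.89 (SE 0.36, adjusted p = 1). Mrpl43 shares exon sequence on opposite strands with Twnk, the mitochondrial DNA helicase. Mrps14 at -0.65 and Mrpl3 at -0.80 followed in the knockout, and Mrpl44 at -0.76 and Mrps14 at -0.70 in the interaction (edgeR adjusted p of 0.999 or 1).

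For ACTH in wild type the smallest p belonged to Mrps22, at a log2 fold change of 0.67, Mrpl38, at 0.60, and Mrpl23, at 0.53 (edgeR adjusted p = 1 for each). The library labelled untreated wild-type male was the lowest of the wild-type glands in all 3, at 22.6 CPM for Mrps22, 34.2 CPM for Mrpl38 and 13.3 CPM for Mrpl23. Without the 2 wild-type glands with kidney or liver transcripts the values were -0.08, -0.09 and 0.12, from 1 treated gland labelled male against 1 untreated gland labelled female, with the spread taken from the other groups.

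Large against small subunit, the ratio of summed CPM ran from 1.69 to 1.86. It was 1.74 and 1.73 in the untreated wild-type glands, 1.73 and 1.69 in the untreated knockout, 1.70 and 1.86 in ACTH-treated wild type and 1.81 and 1.76 in the ACTH-treated knockout. The highest ratio was in the library with liver transcripts. On the log2 scale it was 0.81 ± 0.058 in wild type and 0.81 ± 0.044 in the knockout, and 0.78 ± 0.020 untreated and 0.84 ± 0.056 after ACTH (SD, n = 4). The genotype difference of -0.01 was smaller than either SD, and the ACTH difference of 0.05 was larger than the SD of the untreated glands and smaller than that after ACTH. With Mrps30 and Mrps18a counted in the large subunit and Mrps36 left out, the log2 ratio was 1.02 ± 0.053 in wild type and 1.01 ± 0.056 in the knockout, and 0.98 ± 0.028 untreated and 1.05 ± 0.047 after ACTH (SD, n = 4). So counted, the ACTH difference of 0.07 was larger than either SD, but the ranges overlapped, 0.94 to 1.00 untreated and 0.99 to 1.10 after ACTH. From summed RPKM by symbol, the log2 ratio was 0.77 ± 0.026 untreated and 0.82 ± 0.085 after ACTH (SD, n = 4), a difference smaller than the SD after ACTH. As a score over the family, the ratio was not tested. Summed over the small subunit, the level was 1484 ± 107 CPM untreated and 1354 ± 63.6 CPM after ACTH, and over the large subunit 2554 ± 160 and 2416 ± 116 CPM, with overlapping ranges.

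**Figure D5:**
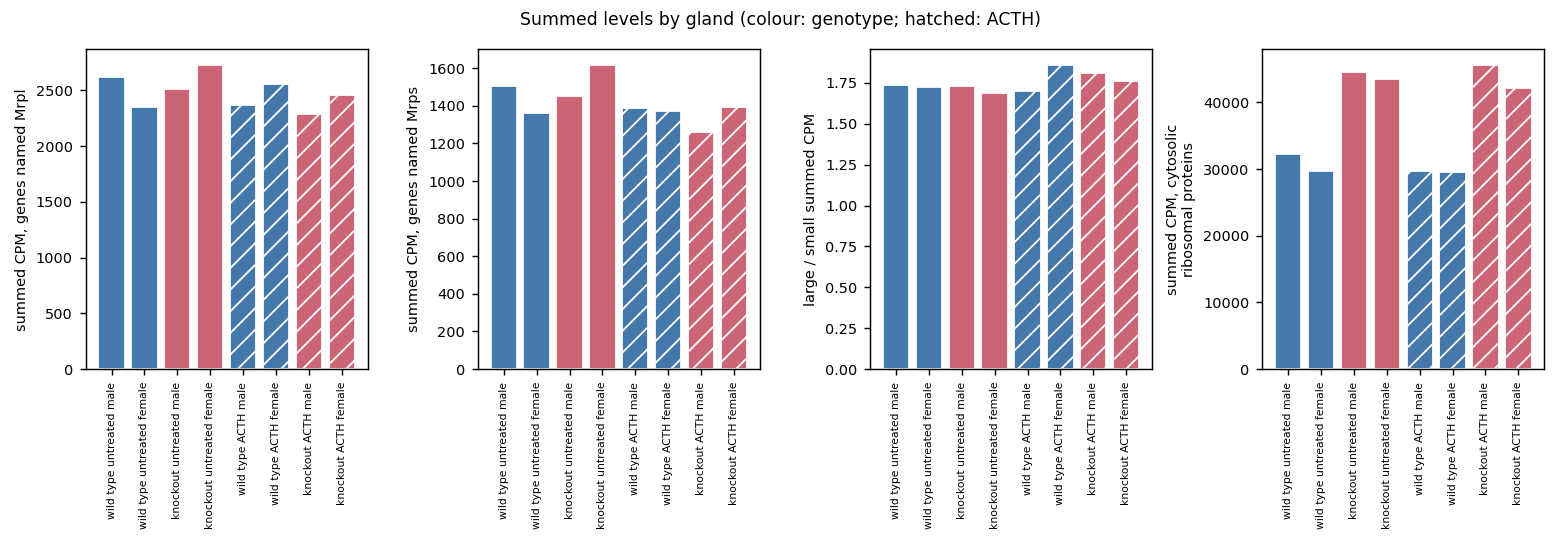
Summed CPM of the genes named Mrpl, of those named Mrps, their ratio, and the summed CPM of the cytosolic ribosomal protein genes, 1 bar per gland, blue for wild type, red for knockout, hatched for ACTH. The ratio runs from 1.69 to 1.86, and only in the cytosolic panel do the genotypes stand apart, with 29560 to 32290 CPM against 42180 to 45660 CPM.

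Members with known roles in the particle were not called either. In the stalk that recruits translation factors, Mrpl10 stood at 87.3 ± 5.40 CPM in wild type against 91.3 ± 23.0 CPM in knockout glands, and Mrpl12, which also binds the mitochondrial RNA polymerase, at 82.9 ± 22.5 and 69.3 ± 9.95 CPM (SD, n = 4). Mrpl45, which docks the ribosome to the inner membrane, stood at 41.1 ± 6.83 and 47.7 ± 6.13 CPM. At the tunnel exit beside Mrpl23, Mrpl22 stood at 28.2 ± 3.79 and 32.5 ± 10.7 CPM and Mrpl24 at 90.7 ± 8.66 and 97.5 ± 30.3 CPM. Their genotype ranges overlapped, so Mrpl23 was the only one of these 3 tunnel-exit genes whose ranges were apart. Mrps12 stood at 14.2 ± 4.84 and 13.1 ± 5.14 CPM. Mrps36, which carries a ribosomal symbol but belongs to the oxoglutarate dehydrogenase complex, stood at 59.8 ± 12.2 and 52.4 ± 21.4 CPM, and its lowest gland was the library with neuron transcripts, at 21.8 CPM.

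Several members are genes of inherited mitochondrial disease. Their knockout against wild-type log2 fold changes were 0.14 for Mrpl3, 0.14 for Mrpl44, 0.31 for Mrps22 and 0.13 for Mrps34, and -0.19 for Mrps2, -0.10 for Mrps14 and -0.10 for Mrps16 (edgeR adjusted p from 0.681 for Mrps22 to 0.924 for Mrps16). Mrps2 stood at 42.2 ± 3.90 CPM in wild type against 37.1 ± 7.43 CPM in knockout glands (SD, n = 4), a difference smaller than the spread between the knockout glands. It was lower in the knockout in all 4 pairs matched by label, though in the untreated pair labelled male only at 38.7 against 39.3 CPM. The share of all genes with 4 pairs in 1 direction was not counted.

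The rest of the mitochondrial translation pathway also gave 0 called genes in edgeR's test of either average comparison, in all 6 lists, and 0 in DESeq2 and limma-voom. Of the 92 genes tested, 10 had an unadjusted p under 0.05 for genotype in edgeR's test and 4 for ACTH, beside 13.4% and 6.11% of all genes. Over all genes 46.5% had a positive knockout value (median log2 fold change -0.04) and 8.11% were lower at an unadjusted p under 0.05, which are the values to set beside the lists that follow. Of 13 translation factors, 12 had a negative knockout value, with a median log2 fold change of -0.43 and 4 at an unadjusted p under 0.05. Gfm2, which recycles the ribosome after termination, stood at 66.2 ± 5.63 CPM in wild type against 41.2 ± 16.5 CPM in knockout glands (edgeR adjusted p = 0.276), and Taco1, a translational activator of Cox1, at 20.8 ± 4.03 and 13.1 ± 5.42 CPM (edgeR adjusted p = 0.314). Of 17 aminoacyl-tRNA synthetases, 12 were negative (median -0.14). Among them Cars2, for cysteine, stood at 21.1 ± 2.07 and 10.9 ± 4.04 CPM (edgeR adjusted p = 0.264), and Tars2, for threonine, at 48.4 ± 1.87 and 34.0 ± 8.96 CPM (edgeR adjusted p = 0.382), both with ranges apart. Of all genes, 4.71% were lower in the knockout in this way, and how many of the 92 genes were was not counted.

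Of 26 assembly factors, 15 were positive (median 0.09), with Mpv17l2 at 0.38 (edgeR adjusted p = 0.384) and Ftsj2, an rRNA methyltransferase, at -1.11 (0.358). The ranges of Mpv17l2 were apart, higher in the knockout, as were those of 4.21% of all genes. Of 19 genes of mitochondrial DNA expression, 13 were negative (median -0.20), and Hsd17b10 and Elac2, which process mitochondrial tRNAs, stood at 0.56 (edgeR adjusted p = 0.275) and 0.41 (0.324). Of 6 ribosomal proteins whose symbols fall outside the rule, 3 were positive, and Dap3, a small-subunit protein that binds GTP, stood at 110.5 ± 24.3 CPM in wild type against 83.5 ± 9.13 CPM in knockout glands (edgeR adjusted p = 0.314), with Ptcd3 at a log2 fold change of -0.42 (0.456). The ranges of Dap3 were apart, lower in the knockout (4.71% of all genes). Its highest value, 145.4 CPM, was in the untreated wild-type gland labelled male, the library with kidney transcripts. Of 11 regulators of mitochondrial biogenesis, 8 were negative (median -0.13), with Gabpb2, a subunit of GABP, at -0.55 (edgeR adjusted p = 0.213) and the nuclear receptor Esrra at -0.80 (0.499). Esrra stood at 70.1 CPM in that same wild-type gland, against 19.4 to 26.1 CPM in the other untreated glands.

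For ACTH the same lists had medians from -0.22 (the 6 ribosomal proteins outside the rule) to 0.17 (the 11 regulators). Pprc1, a coactivator that serum and growth signals induce quickly, stood at 21.9 ± 5.96 CPM untreated and 36.9 ± 7.88 CPM after ACTH (SD, n = 4, edgeR adjusted p = 0.729), with 1 of 4 pairs against that direction. Trmt10c, a subunit of mitochondrial RNase P, stood at 42.7 ± 2.67 and 58.5 ± 9.58 CPM (edgeR adjusted p = 0.727), higher in all 4 pairs, which was not counted over all genes. Lrpprc, which stabilises mitochondrial mRNAs, stood at 122.5 ± 13.3 and 163 ± 26.2 CPM (edgeR adjusted p = 0.783). The synthetase Rars2, for arginine, stood at 50.4 ± 13.2 and 32.2 ± 1.95 CPM (edgeR adjusted p = 0.727), with ranges apart (1.8% of all genes were lower in this way). Iars2, for isoleucine, had a log2 fold change of 0.26 (edgeR adjusted p = 0.833). Taco1 had -0.65 (edgeR adjusted p = 0.806), Gfm2 -0.45 (0.849), Ftsj2 -0.88 (0.832), Ngrn -0.29 (0.880), Chchd1 -0.32 (0.863), Dap3 -0.24 (0.863) and Gabpb2 -0.23 (0.884).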

How the data were processed

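Per the labels' protocols, RNA extracted with TRIzol was treated with DNase I, primed with oligo-dT and random hexamers, made into libraries with a directional kit and sequenced as single reads of 75 bases. The submitters' processing notes name the build mm10 and the tools Partek 6.6, Bowtie2 2.2.5.0, TopHat2 2.0.13 and FastQC 0.11. The treatment of strand and of multiply matching reads was not given in the sources used here. So members whose exons overlap another coding gene (20 on the other strand, 4 on the same, Mrps34 in both) are uncertain. Exons of Mrps18b, Mrps18c and Mrpl33, among others, overlap those of a gene not annotated as coding, so these are uncertain too. Per the file headers, the authors deposited an estimated count and an RPKM value for each RefSeq transcript.

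Estimated counts were summed per symbol and rounded. Genes were kept by filterByExpr (minimum count 10), which left 15361 and removed 3485, scaled by TMM factors and tested with edgeR 4.0.16 (R 4.3.3) in a model of genotype, treatment and sex label (4 residual degrees of freedom), or with the genotype by treatment interaction (3). Calls needed an adjusted p (Benjamini-Hochberg) under 0.05, and standard errors came from the F statistic. RPKM of a symbol's transcripts was summed. The smallest member count in a library was 74, and counting intervals cover counting error only. The scripts were tested on simulated data with a fixed spread for all genes and no transcripts of other tissues. That run does not show how often differences would be found in these glands. DESeq2 1.42.0 and limma-voom (limma 3.58.1), other scalings, no filter, no sex label and libraries left out were alternatives. The members and lists were chosen with earlier results of these data known. Named are the members with the smallest p (8 per average comparison, 3 in each other), those with the highest and lowest RPKM (5 each) and CV (4 each), members with set roles, and 2 genes per pathway list and comparison. Mrps33 and Mrps7 were named after their values were seen, for their ranges, as was Mrpl21 for its place in the plot.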

Additional observations from a re-analysis of the deposited data

Results flagged for a closer look

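Single glands that stood far from the other 3 of their genotype or treatment (Dixon's criterion at 95%) were looked for in 264 groups of 4 glands. There were 17 such values (6.44%). The groups came from 66 items: the named genes, the summed levels and the subunit ratio. Some genes were named for high CV or small p in the same glands, and each gland sits in a genotype and a treatment group. So the 1 in 20 groups (5%) that chance gives cannot be set against this share.

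The untreated wild-type gland labelled male had 4 of them. Mrpl18 stood there at 124.1 CPM, against 48.3 to 60.0 CPM in the other untreated glands, and Dap3 at 145.4 CPM, against 90.2 to 93.4 CPM. Esrra stood at 70.09 CPM against 19.4 to 26.1 CPM in the other untreated glands, and Mrps24 at 73.62 CPM against 49.3 to 51.7 CPM among the remaining wild-type glands.

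The knockout gland labelled male after ACTH had 6. Mrpl47 stood at 13.02 CPM, against 36.8 to 40.4 CPM in the other knockout glands. Among the ACTH-treated glands, Mrps16 stood at 19.21 CPM (others 37.9 to 38.9 CPM), Mrps18a at 36.35 CPM (others 42.5 to 43.4 CPM), Pprc1 at 25.11 CPM (others 40.1 to 41.6 CPM) and Ngrn at 64.31 CPM (others 43.6 to 47.0 CPM). The summed level of the genes named Mrps was 1260 CPM in this library and 1372 to 1395 CPM in the other treated glands.

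The remaining 7 were spread over 4 libraries. In the untreated knockout labelled female, Mrpl24 stood at 142.7 CPM (other knockout glands 78.5 to 85.7 CPM), Mrps6 at 53.7 CPM (64.8 to 66.5 CPM) and Elac2 at 53.79 CPM (75.6 to 79.7 CPM). In the untreated knockout labelled male, Elac2 stood at 79.73 CPM, against 52.1 to 53.8 CPM in the other untreated glands. In the ACTH-treated wild type labelled male, Mrps6 stood at 62.38 CPM and Mrps30 at 48.5 CPM, against 42.6 to 44.5 CPM and 45.3 to 45.6 CPM among the remaining wild-type glands. In the untreated wild type labelled female, Mrps16 stood at 30.1 CPM, against 38.7 to 40.0 CPM.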

How the results depend on the processing

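The count of 0 called members held in all 7 comparisons under every alternative run: RLE scaling, no filter, no sex label, DESeq2, limma-voom, each library left out, and the 2 wild-type libraries with kidney or liver transcripts left out. With 1 library out, the family's median log2 fold change ranged from -0.03 to 0.06 for genotype and from -0.12 to -0.03 for ACTH, and the subunit ratio difference from -0.03 to 0.02 and from 0.03 to 0.07. Without those 2 wild-type libraries, ACTH in wild type reversed for Mrpl38 (-0.092) and Mrps22 (-0.082), where 1 treated gland labelled male stands against 1 untreated labelled female and is assumed to vary like the other groups. The 6 members at an unadjusted p under 0.05 for genotype became 2 without the untreated wild type labelled male, 3 without the untreated knockout labelled male, 3 without the ACTH-treated wild type labelled female and 3 without both wild-type libraries. The 2 for ACTH became 0 without the untreated knockout or the ACTH-treated wild type labelled female and in limma-voom, 1 without the ACTH-treated knockout labelled female or both wild-type libraries, 4 without the untreated wild type labelled female or the untreated knockout labelled male, and 5 without the ACTH-treated wild type labelled male. With 1 library out, the 3 members at an unadjusted p under 0.05 between the untreated genotypes became 0 to 9 (0 without either untreated gland labelled male, 9 without the untreated wild type labelled female), and the 4 for ACTH in the knockout became 1 to 8 (1 without either knockout gland labelled male, 8 without the ACTH-treated knockout labelled female). Called genes of all kinds moved more. For genotype they were 4, and 41 with no filter, 1 without the sex label, 947 in DESeq2, 108 in limma-voom and 0 to 253 with 1 library out. For ACTH they were 3, and 8, 0, 123, 3 and 0 to 23. With no filter the median of all genes for genotype moved from -0.04 to -0.13. No paired analysis was possible because the labels give no replicate numbers shared between groups, and the sex label is a term of the model. With 4 glands against 4, differences under 2-fold are only partly resolved, and the interaction less so.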
